A study of Drosophila melanogaster with 3 samples.

Results

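The genes described here encode subunits of Mediator, the TBP-associated factors (TAFs) of TFIID, the general transcription factors TFIIA, TFIIB, TFIIE and TFIIF with the elongation factor TFIIS, and subunits of RNA polymerase II. Members were all probes whose current gene symbol starts with MED, Taf, TfII, Polr2, Rpb or RpII followed by a number or letter code, and that had a value on all 3 arrays. Polymerase III factors named TFIII were not members. Such a symbol belongs to 62 genes of the reference annotation. Of these, 42 genes with 55 probes were tested, among 10183 genes and probes in all.

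RNA polymerase II needs the general transcription factors to find a promoter and to open the DNA. TFIID, made of the TATA-binding protein TBP and the TAFs, recognises core promoters, and Mediator carries signals from sequence-specific activators to the polymerase. In the early fly embryo this machinery is largely loaded by the mother as RNA and protein, since the embryo's own genome is almost silent during the first nuclear divisions and is activated in bulk only around cellularization.

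Transcript levels were compared between laser-wounded and unwounded Drosophila melanogaster embryos on spotted cDNA arrays, to ask whether cell wound repair changes gene expression. Embryos aged 0 to 1 h, in which all nuclei still share one cytoplasm, carried the actin reporter sGMCA in both conditions, had their chorion removed by hand and were kept under halocarbon oil, with freezing 30 min after the laser. Unwounded embryos were handled alike but received no laser. Experiments 3, 4 and 5 gave 1 array each. The study's methods call its replicates independent and give a larger number of them than the arrays used here, and the labels do not say how many embryos went into each. The wounded channel was Cy3 throughout and the unwounded channel Cy5, with no dye swap, so dye and condition cannot be told apart. Each array gave a log2 ratio per probe, and the ratio is relative to the bulk of transcripts because the arrays were loess normalized. Whole embryos were extracted, so that a change throughout the embryo and one in the cytoplasm near the wound cannot be told apart. Since the table holds ratios and no levels, the presence of embryo markers could not be checked.

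Positive values are read as higher in wounded embryos. The table does not state this direction, which was taken from the study's results. It rests on genes the study calls raised, all 12 of which that could be tested were above 0, and lowered, all 13 of which were below 0. Those genes were chosen on the same arrays. For dhd, exu and nullo the means here, -1.348, -1.167 and 1.095, equal the log2 changes that the study lists. The signs below are therefore those of the study. If the opposite reading were true, every sign below would turn around.

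None of the 42 members passed the test. A feature was called when its mean ratio differed from 0 at a limma adjusted p under 0.05 and by at least 1.5-fold, a log2 ratio of 0.58. Of all 10183 features 2.33% were called, 0.648% higher and 1.68% lower. Among the members 0 of 42 were called higher and 0 of 42 lower, which is close to these small shares. An unadjusted limma p under 0.05 was reached by 8 members (19.0%), against 25.0% of all features. It was reached above 0 by 5 of the 42 members, against 10.1% of all features, and below 0 by 3 of the 42, against 14.9% of all features. The smallest adjusted p of a member was 0.107, for MED19. The means of the members lay between -0.45 for MED28 and 0.34 for Taf6, and 29 of them were within 0.15 of 0.

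A missed threshold alone does not show that a transcript was stable, so the intervals of the means were examined. The 95% interval of the mean lay inside 1.5-fold in both directions for 40 of 42 members, against 84.6% of all features. The exceptions were Taf6, with an interval from 0.07 to 0.60, and MED28, with an interval from -1.01 to 0.12. The median SD over the 3 arrays was 0.118 for the members and 0.127 for all features.

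**Figure D1:**
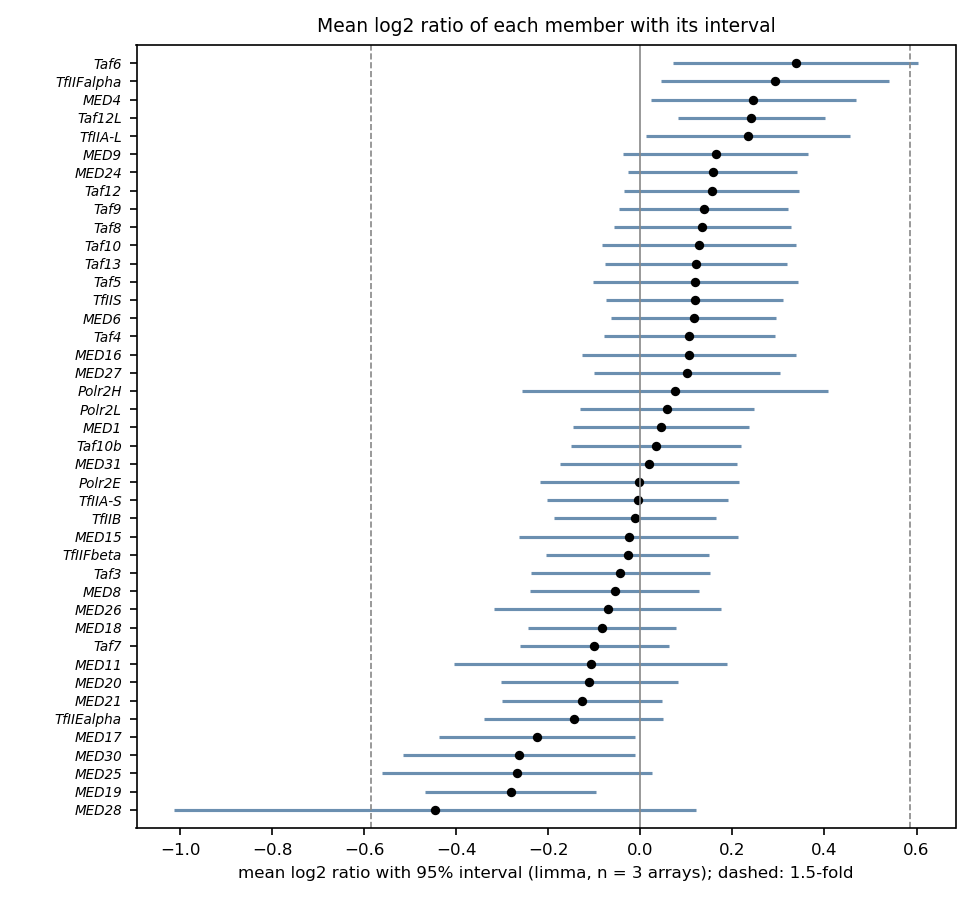
Mean log2 ratio of wounded over unwounded (points) with its 95% interval from limma (lines, n = 3 arrays) for the 42 members, in order of the mean. Dashed lines mark 1.5-fold, and 40 of the 42 intervals lie between them, the exceptions being Taf6 and MED28.

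Of the 25 Mediator genes that carry a MED symbol 20 were tested. Of these 20, 8 means were above 0 and 12 below, and 0 were called. By the median of the means, the head module, which contacts the polymerase, lay lowest of the 3 modules. On experiment 5 the tail median, at -0.02, was lower. Of its 7 tested genes 6 had a mean below 0, where 50.3% of all features had a mean above 0. The median of the 7 means was -0.11, against 0.0014 for all features. On experiments 3, 4 and 5 the head median was -0.10, -0.17 and -0.00012, so the shift was present on experiments 3 and 4 and missing on experiment 5.

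Within the head, MED30, a subunit found in animals and not in budding yeast, had -0.40, -0.03 and -0.36 in experiments 3, 4 and 5. Its mean was -0.26 ± 0.20 (SD, n = 3; limma adjusted p = 0.188), and its value in experiment 4 was close to 0. MED17, a central head subunit, had -0.20, -0.38 and -0.09, with a mean of -0.22 ± 0.15 (limma adjusted p = 0.186). Both genes were below 0 on every array, but neither passed.

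MED18 and MED20, which form a mobile part of the head in yeast, were also below 0 on each array. MED18 had -0.13, -0.07 and -0.05, and MED20 had -0.10, -0.23 and -0.00012. MED11, which pairs with MED22 in the head, was below 0 only through experiment 4, with 0.03, -0.41 and 0.06. MED8, the head subunit that joins MED18 and MED20 to the rest in yeast, had -0.02, -0.17 and 0.02.

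MED6 was the head gene with a mean above 0. It had 0.14, 0.02 and 0.19, a mean of 0.12 ± 0.09 (limma adjusted p = 0.349), with every array above 0.

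The middle module, which links head and tail, spread in both directions. Of its 7 tested genes 4 had a mean above 0 and 3 below, with a median of 0.02. MED19, which binds Hox proteins in flies, was the Mediator gene with the smallest p. It had -0.40, -0.25 and -0.20, all below 0, and a mean of -0.28 ± 0.10 (limma adjusted p = 0.107), or 1.22-fold lower.

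MED4 lay on the other side, with 0.31, 0.06 and 0.37 and a mean of 0.25 ± 0.16 (limma adjusted p = 0.173). MED9, its partner in the yeast middle module, had 0.26, 0.02 and 0.22, a mean of 0.16 ± 0.13. Both genes were above 0 on all arrays and had their smallest value in experiment 4. MED21, which pairs with MED7, was below 0 on all arrays at -0.12, -0.05 and -0.20. Thus the extremes of the 20 Mediator means, apart from MED28, came from 1 module.

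The remaining middle genes did not keep a sign. MED31 had 0.13, -0.10 and 0.03, and MED1, a contact of nuclear receptors in mammals, had -0.05, 0.02 and 0.17. MED26, which recruits elongation factors in human cells, had -0.27, 0.13 and -0.07.

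The tail, which receives activators, had 3 means above 0 and 3 below. Its median was 0.04 as the median of the 6 means but -0.01 as the mean of the medians of the 3 arrays, so no direction can be given. MED28 had the lowest mean of all members. Its 3 values were -0.10, -0.15 and -1.09, so that 1 array set the mean of -0.45 ± 0.56 (limma adjusted p = 0.278). Without experiment 5 the mean was -0.12.

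MED25, an activator target in human cells, had -0.44, 0.02 and -0.39, again with experiment 4 apart, and a mean of -0.27 ± 0.26 (limma adjusted p = 0.227). MED24 had 0.19, 0.05 and 0.23, all above 0, with a mean of 0.16 ± 0.10. MED16 had 0.01, -0.0024 and 0.31 and MED27 0.25, 0.03 and 0.03, so that 1 array gave most of each mean. MED15, another activator target, had -0.19, 0.17 and -0.06.

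**Figure D2:**
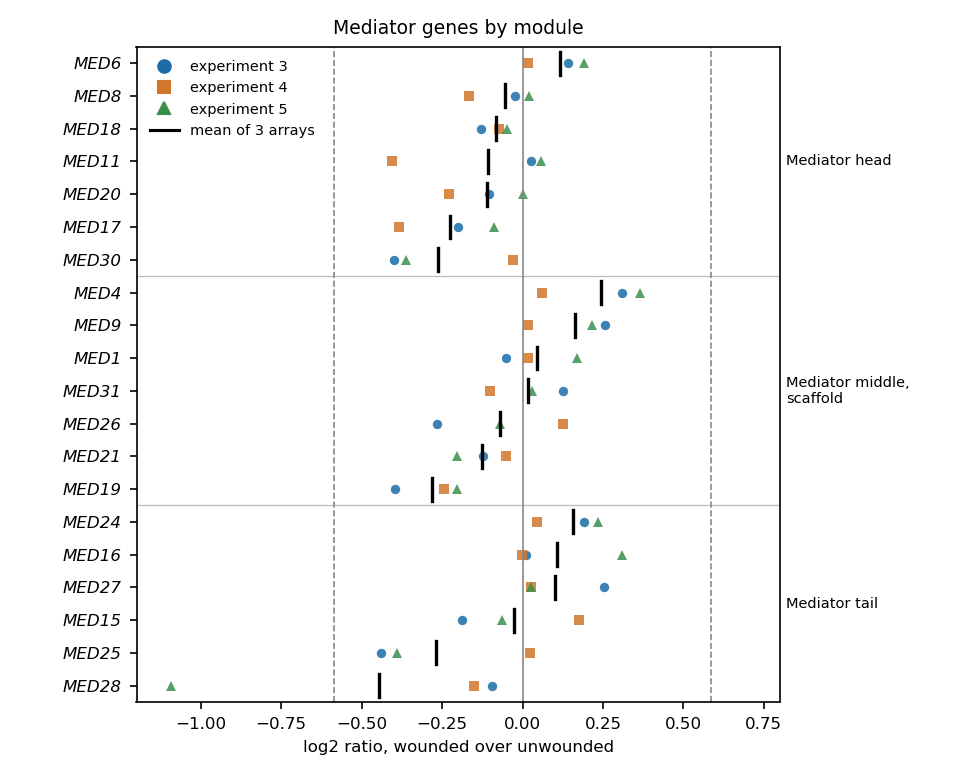
Log2 ratio of wounded over unwounded on each of the 3 arrays (coloured points) and their mean (black bars) for 20 Mediator genes, grouped by module and ordered by mean. Dashed lines mark 1.5-fold; MED28 in experiment 5, at -1.09, is the 1 value beyond them.

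Other subunits of Mediator carry symbols that the rule does not take. Of the kinase module, which can hold Mediator away from the polymerase, skd (MED13) had 0.13 ± 0.06, CycC 0.10 ± 0.07, kto (MED12) -0.11 ± 0.06 and the kinase gene Cdk8 -0.20 ± 0.21. Of the 7 tested genes of the kinase module and the TBP family 0 were called. An unadjusted limma p under 0.05 was reached by 0 of the 7, against 25.0% of all features. Tbp itself had -0.17, -0.13 and -0.01, and its relatives Trf and Trf2 had means of 0.09 ± 0.08 and 0.32 ± 0.32. The module's genes therefore lay on both sides of 0.

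TFIID TAFs lay mostly above 0. Of 11 tested TAF genes of TFIID 9 had a mean above 0 (81.8%, against 50.3% of all features), 2 had a mean below 0 and 0 were called. The median of the means was 0.12, and on experiments 3, 4 and 5 the TAF medians were 0.12, 0.02 and 0.19. They thus exceeded the median of all features on every array (0.0036, -0.01 and 0.01), least so on experiment 4. At an unadjusted limma p under 0.05 there was 1 of 11 TAFs, Taf6, against 25.0% of all features. Above 0 on all 3 arrays were 4 of the 11 (25.3% of all features). The same sign on all 3 arrays was kept by 5 of the 11 (45.45%, against 50.3% of all features). The mean of Taf4 is counted above 0, although 1 of its 2 probes had a mean of -0.02.

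Taf6 had the highest mean of all 42 members over the 3 arrays, an order that rests on experiment 5. Without that array its mean was 0.21, below the 0.22 of Taf12L. Together with Taf9, it forms a histone-like pair that binds downstream promoter elements, and in vitro the patterning activators Bicoid and Hunchback contact it. Its values were 0.27, 0.16 and 0.58, all above 0 with experiment 5 highest, a mean of 0.34 ± 0.22 (limma adjusted p = 0.140) or 1.26-fold. Taf9 had 0.19, 0.02 and 0.20 and a mean of 0.14 ± 0.10 (limma adjusted p = 0.296).

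Taf4 and Taf12 form a second histone-like pair. Taf12 had 0.24, 0.03 and 0.19, with a mean of 0.15 ± 0.11 (limma adjusted p = 0.266). Taf4, a further contact of Bicoid, had 0.12, 0.20 and -0.0004 and a mean of 0.11 ± 0.10. Its highest value was in experiment 4, where 6 of the 11 TAFs had their lowest.

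Taf8, which brings Taf10 into the complex, had 0.06, 0.07 and 0.27, and Taf10 itself 0.20, -0.04 and 0.22. Taf10b, a paralogue that is used in the acetyltransferase complex SAGA, lies next to Taf10 in the genome. It had 0.06, -0.08 and 0.12, the same order of the 3 arrays as its neighbour at lower values. Taf13, the partner of Taf11, had 0.23, -0.01 and 0.14. Taf5, a WD-repeat subunit of the TFIID core, had -0.03, 0.09 and 0.29.

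Taf7 and Taf3 had means below 0. Taf7, which binds Taf1 and restrains its acetyltransferase activity in human cells, had -0.15, -0.08 and -0.07, below 0 on all arrays, and a mean of -0.10 ± 0.04 (limma adjusted p = 0.367). Taf3 had 0.03, 0.02 and -0.18.

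Taf12L, a TAF12-like gene of the male germ line, was the most even of the members. It had 0.23, 0.21 and 0.28, a mean of 0.24 ± 0.03 and the smallest SD of the 42 genes. Its limma adjusted p was 0.108, and at 1.18-fold it was also below the 1.5-fold minimum. A list of 5 testis TAF paralogues, which replace their general relatives during sperm formation, was searched by symbol. By that search mia was found, at 0.14 ± 0.09 (limma adjusted p = 0.275). The other listed symbols were not matched, so Taf12L may itself be on that list under an older name.

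Taf9, Taf10b and Taf12 are also subunits of fly SAGA. Of 8 tested genes from the list of SAGA partners 7 had a mean above 0 (50.3% of all features), and the median of the 8 was 0.11. None was called, and 1 of the 8 reached an unadjusted limma p under 0.05 (25.0% of all features). This was Spt3, a relative of Taf13, at 0.28, 0.15 and 0.34 (mean 0.26 ± 0.10; limma adjusted p = 0.122). The SAGA median was thus close to the 0.12 of the TAFs, and the lists were not tested against each other.

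**Figure D3:**
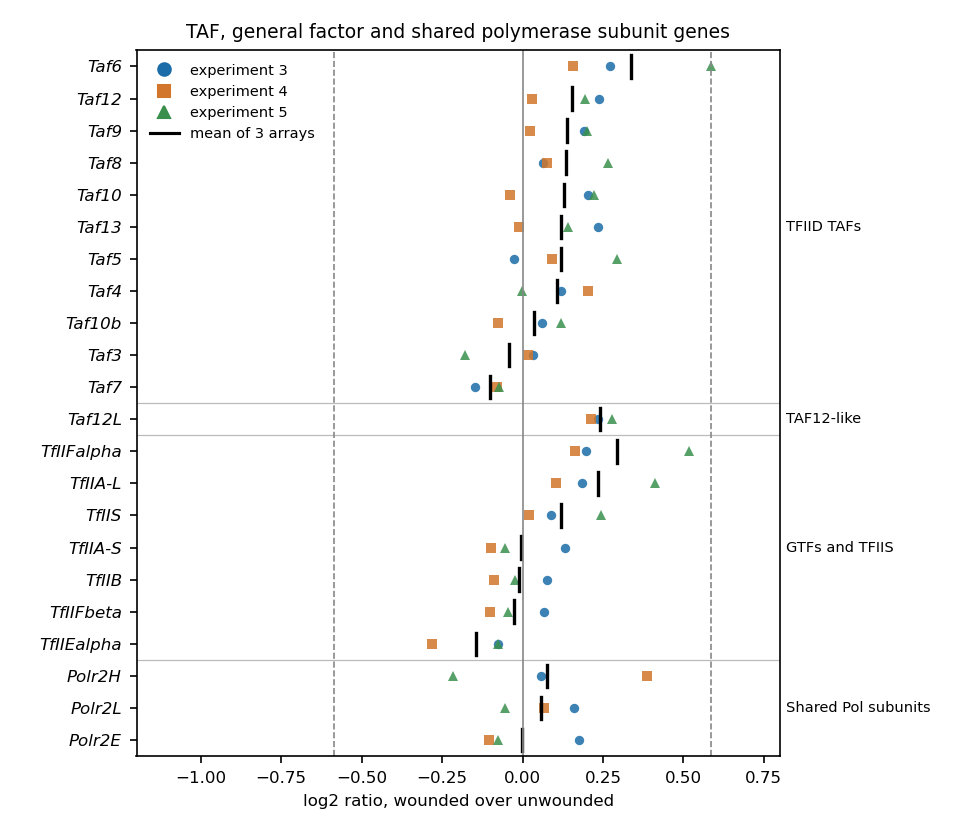
Log2 ratio of wounded over unwounded on each of the 3 arrays (coloured points) and their mean (black bars) for 22 genes of TFIID, the general transcription factors (GTFs) with TFIIS, and shared polymerase subunits. Dashed lines mark 1.5-fold; 9 of the 11 TFIID TAFs have a mean above 0.

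The general transcription factors had 3 means above 0 and 4 below among 7 tested genes, with a median of -0.0061 and 0 called. The larger subunits of 2 factors stood above their smaller partners. TfIIFalpha, the larger subunit of the factor that escorts the polymerase to the promoter, had 0.20, 0.16 and 0.52 and a mean of 0.29 ± 0.20 (limma adjusted p = 0.154). TfIIFbeta, the smaller subunit, had 0.07, -0.10 and -0.05, so TfIIFalpha was the higher of the pair on each array.

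TfIIA-L, which encodes the precursor of the larger TFIIA subunits, had 0.19, 0.10 and 0.41 and a mean of 0.23 ± 0.16 (limma adjusted p = 0.184). TfIIA-S, the gene of the small subunit, had 0.13, -0.10 and -0.05. For both factors the gene of the larger subunit was above that of the smaller one on all 3 arrays, with the TfIIA-S probes averaged. In experiment 3, however, a single TfIIA-S probe had 0.23, above the 0.19 of TfIIA-L. These 2 pairs were compared after their values were seen, and no test of the difference was made.

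TfIIB, which bridges TBP and the polymerase, had 0.08, -0.09 and -0.02, around 0. TfIIEalpha, which brings in the helicase factor TFIIH, had -0.08, -0.28 and -0.08, below 0 on each array, with a mean of -0.15 ± 0.12 (limma adjusted p = 0.296). TfIIS, which restarts a polymerase that has slid backwards, had 0.09, 0.02 and 0.24 (mean 0.12 ± 0.11).

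RNA polymerase II could be followed only through 3 subunits that it shares with polymerases I and III. None of the 7 genes of its own subunits, among them Polr2A, which encodes the largest subunit with the carboxy-terminal heptad repeats, had a probe that could be tested. Polr2H had 0.06, 0.39 and -0.21, Polr2L 0.16, 0.07 and -0.05, and Polr2E 0.17, -0.11 and -0.08. All 3 genes changed sign between arrays, and their means of 0.08 ± 0.30, 0.06 ± 0.11 and -0.0022 ± 0.15 were smaller than their spread.

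In total, 20 genes of the rule were not tested. No probe is named for 16 of them in the annotation used here, including Taf1, Taf2, MED7, MED10, MED22 and TfIIEbeta. The probe of MED23 was empty on all arrays, and MED14, Taf11 and Polr2M were named only on probes that name a further gene. Such a probe cannot be given to 1 gene. The probe for Polr2M and unc79 was the only one of 4 such probes that was called. It had -0.65, -1.03 and -0.79, all beyond 1.5-fold, with a mean of -0.82 ± 0.19 (limma adjusted p = 0.0365). This call, like every other one, was lost when the arrays were scaled to equal spread or when any 1 array was left out, where 0 of all features were called. The smallest limma adjusted p of any feature was then 0.0577 with scaled arrays. It was 0.147, 0.0594 and 0.180 without experiment 3, 4 and 5, where only 2 arrays remained. Polr2M is a polymerase II associated protein that blocks TFIIF in human cells, while unc79 encodes a component of a sodium leak channel complex. The probe for Taf11 and Gdi had -0.23 ± 0.07, and that for MED14 and CG13893 had 0.09 ± 0.05, neither of which passed.

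Probes of the same gene were used as a check of the members' values. More than 1 probe was present for 9 members, with 22 probes. The 2 probes of Taf10 nearly coincided, with means of 0.14 and 0.12. Those of MED24 (0.23 and 0.09), Taf13 (0.05 and 0.20) and MED1 (0.03 and 0.06) had the same sign, and the 3 of Taf3 were between -0.06 and -0.03. MED27 was spotted as a clone and its re-amplified product, and the original gave 0.48 in experiment 3 where the other gave 0.02.

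Disagreement was found in 3 genes. The probes of Taf4 had means of -0.02 and 0.23, so that its direction depends on the clone. The 4 probes of MED26 had 0.08, 0.02, -0.20 and -0.17. The 3 probes of TfIIA-S had 0.08, -0.13 and 0.03, and the last 2 are a clone and its re-amplified product. Probes of 1 gene therefore differed by up to about the size of the larger means.

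**Figure D4:**
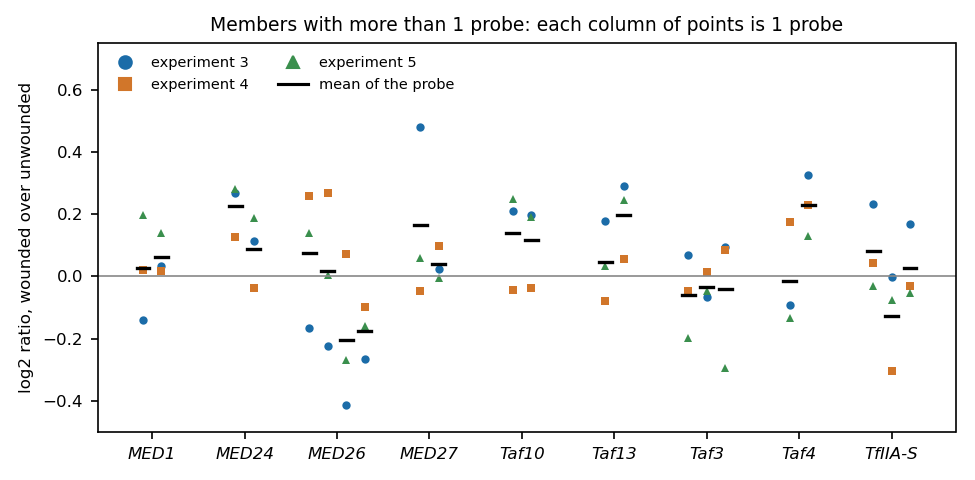
Log2 ratio of wounded over unwounded for each probe (1 column of points) of the 9 members with more than 1 probe; points are the 3 arrays and black bars the mean of the probe. Probes of Taf10 lie together, whereas those of Taf4, MED26 and TfIIA-S have means on both sides of 0.

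The complexes differed in how they lay on the arrays. The median of the TAFs was above that of the Mediator head by 0.22, 0.19 and 0.20 on experiments 3, 4 and 5, a difference of 0.20 ± 0.02 (SD, n = 3). The TAF median was above that of all 20 Mediator genes by 0.19, 0.04 and 0.18. Among complexes with more than 1 gene, the TAFs had the highest median of the means and the head the lowest. The first difference is thus that of the extreme pair, and its SD covers arrays and not genes. The gene means overlapped, from -0.10 to 0.34 in the TAFs and from -0.26 to 0.12 in the head. The differences between medians describe the arrays and were not tested, since the complexes were compared with earlier results known. Experiment 4 gave the lowest value for 26 of the 42 members (61.9%), while it was the lowest array for 46.3% of all features. Across the 42 members, Pearson's r was 0.60 for experiments 3 and 5, whereas it was 0.33 for experiments 3 and 4. Experiments 4 and 5 gave 0.31. All features gave 0.50, 0.39 and 0.32 in the same order of pairs. Genes on an array share its RNA samples and dyes, so these values carry no test. The same sign on all 3 arrays was found for 22 members (52.4%), against 50.3% of all features. Above 0 on all arrays were 13 members (background 25.3%) and below 0 on all arrays 9 (background 25.0%).

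**Figure D5:**
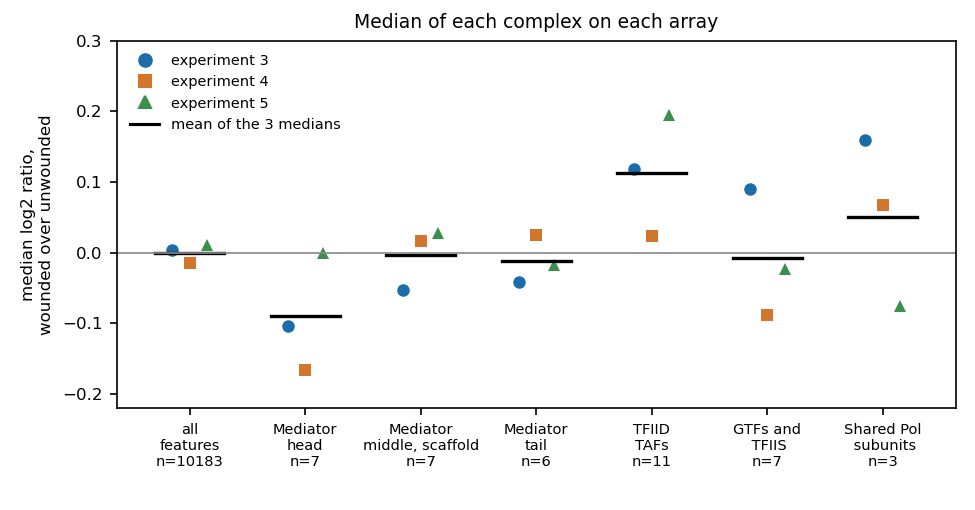
Median log2 ratio of wounded over unwounded over the genes of each complex on each array (coloured points), with the mean of the 3 medians (black bars), beside that of all 10183 features. TFIID TAFs lie above 0 on all arrays and the Mediator head at or below 0; the other complexes have arrays on both sides.

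Partners of the polymerase outside the rule were taken from fixed lists. TFIIH, which opens the promoter and phosphorylates the polymerase, had 4 means above 0 and 4 below among 8 tested genes, and 0 were called. Its kinase subcomplex contributed the lowest value, with Mat1 at -0.22, -0.35 and -0.39 (mean -0.32 ± 0.09; limma adjusted p = 0.0818), and CycH had -0.11, -0.23 and -0.26. Both were below 0 on every array. Tfb4, a subunit of its core, had a mean of 0.32 ± 0.27 (limma adjusted p = 0.186).

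Of 21 tested genes for pausing and elongation 0 were called. An unadjusted limma p under 0.05 was reached by 11 of the 21. It was reached above 0 by 7 of the 21 (10.1% of all features) and below 0 by 4 of the 21 (14.9% of all features). The phosphatase gene Fcp1, whose product removes phosphates from the polymerase tail, had -0.35, -0.34 and -0.42 and came nearest to the threshold for p (limma adjusted p = 0.051), although its mean of -0.37 ± 0.04 was short of 1.5-fold. Both subunits of the histone chaperone FACT were below 0 on all arrays, with dre4 at -0.28, -0.26 and -0.30 (limma adjusted p = 0.0818) and Ssrp at -0.55, -0.30 and -0.27 (limma adjusted p = 0.0853). Neither passed. Fcp1, dre4 and Ssrp had the 3 smallest p of the list. Among the 7 genes above 0 at an unadjusted limma p under 0.05, atms, Cdk9 and Cdk12 had the smallest. Their means were 0.27, 0.25 and 0.19 (limma adjusted p = 0.118, 0.122 and 0.15), and none of them passed. The list had a median of 0.11, with values on both sides of 0.

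The other polymerases gave 1 call, a lower one, where 1.68% of all features were called lower. Of 6 tested subunits of polymerase III, Polr3D fell, with -0.55, -0.72 and -0.52 (mean -0.60 ± 0.11; limma adjusted p = 0.0367), just past the 1.5-fold minimum. With scaled arrays or with any 1 array left out, it was not called, and neither was any other feature. Polr3C, in contrast, had 0.28, 0.34 and 0.28 and did not pass (limma adjusted p = 0.0746). Of 6 tested subunits of polymerase I 0 were called, and Polr1A, the largest, had -0.25 ± 0.07. Medians were -0.01 for polymerase III and -0.08 for polymerase I.

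Lists of genes that mark developmental stage were read in the same comparison. They were chosen with earlier results of these data known. They also hold genes that the study lists among its largest changes, such as nullo, dpn, dhd and exu. Their counts beside the background are therefore a description and no test. Of 23 tested early zygotic genes 11 rose (background 0.648%) and 0 fell, with medians of 0.96, 0.45 and 0.83 on experiments 3, 4 and 5, and means from -0.12 for ind to 1.10 for dpn. Of 29 tested maternal and germ plasm RNAs 4 fell (dhd, exu, vas and del; background 1.68%) and 0 rose, with medians of -0.20, -0.15 and -0.15 and a lowest mean of -1.35 for dhd. Its highest mean, that of stau, came from 1 array, with 0.09, 1.91 and -0.05. None of these calls remained with scaled arrays or with any 1 array left out, where no feature of any kind was called. The early zygotic medians were further from 0 than those of the TAFs and of each Mediator module on every array, whereas the maternal medians were of similar size to some of these. The part of both lists in the members' values was not tested. Across the 42 members, the mean ratio bore almost no relation to the length of the annotated gene (Spearman's rho = 0.02, a description without a test).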

How the data were processed

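The authors hybridised wounded and unwounded cDNA together to spotted arrays of fly cDNA clones, scanned them, left out spots of poor quality or too close to background, and deposited 1 log2 ratio per probe and array, loess normalized in limma. Spot brightness was not used here, so how bright the spots behind a ratio were is unknown. Precision is limited by there being 3 arrays. The study's methods name a genome release for gene sizes; the annotation of the clones is not given in the sources used here.

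Probes were named through the platform annotation, with symbols updated by gene identifier to NCBI RefSeq's Release 6 gene table, used for names, gene lengths and neighbours only. All 55 member probes matched by gene identifier. Of 12144 probes, 9917 had 1 symbol, 625 several and 1442 none, and 160 control spots were left out. Probes of a gene were averaged on each array, which gave 10183 features with a value on all 3 arrays. An intercept-only limma model (package version 3.58.1 under R 4.3.3) tested each mean against 0, two-sided, with Benjamini-Hochberg adjustment over all features. The study's methods give limma, the false discovery rate and the 1.5-fold minimum. Mediator modules, the other complexes and the partner lists were taken from general knowledge, and MED27 and MED28 were counted as tail, a placement that differs between sources. Members and lists were chosen with earlier results of these data known. The genes named in full were those with an unadjusted p under 0.05, the 2 highest and lowest means of each complex and those with more than 1 probe, and of the partner lists the called genes and up to 3 with the smallest p. Other names, including the whole kinase module with the TBP family, atms, Cdk9, Cdk12, ind and dpn, were added after their values were seen. Medians used pandas (version 2.3.3). Alternatives were scaled or centred arrays, features on at least 2 arrays, single probes, array weights, other thresholds and leaving out each array. The deposited labels number each experiment once and in 1 group, so no arrays are paired with each other. Wounded and unwounded RNA were paired within each array, and the test of the ratios against 0 used that pairing.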

Additional observations from a re-analysis of the deposited data

How the results depend on the processing

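No member was called in any alternative (limma), 0 higher and 0 lower, and the smallest adjusted p of a member in a refit was 0.0803. Over all features, the counts of 66 higher and 171 lower became 0 and 0 when the arrays were scaled to equal spread (1050 and 1502 with an unadjusted p under 0.05), and 0 to 0 with 1 array left out, where 425 to 1020 higher and 1030 to 1426 lower had an unadjusted p under 0.05. They became 115 higher at an adjusted p under 0.10 and 322 lower without a minimum fold; the cause of the loss with scaled arrays was not tested. The median of the Mediator tail ranged from -0.0010 without experiment 5 to 0.0408 without experiment 3 when 1 array was left out and was 0.0639 with each probe on its own. The other complex medians moved by less than their SD over arrays. Of 336 values of members in the alternatives, 317 kept their sign. Many of these could hardly turn, since centred arrays and features on at least 2 arrays left the members' means almost unchanged. Single probes left the means of the 33 members with 1 probe as they were. Of the 19 values that turned, 14 came with 1 array left out. The sign turned in 13 members, none with a main mean beyond 0.11. Without experiment 5, the means of TfIIFalpha and TfIIA-L were 0.18 and 0.14, and without experiment 4 those of MED17 and MED25 were -0.145 and -0.42. With array weights, TfIIA-S, TfIIB and Polr2E had 0.0263, 0.0096 and 0.0386. With single probes, MED26 had 0.0768 and Taf4 -0.0161. With 1 array left out, the mean ranged from -0.0757 to 0.0399 in TfIIA-S, from -0.0558 to 0.0269 in TfIIB and from -0.0735 to 0.0096 in TfIIFbeta. It ranged from -0.1899 to 0.0410 in MED11, from -0.0174 to 0.0935 in MED1, from -0.0366 to 0.0771 in MED31, from -0.1690 to 0.0270 in MED26 and from -0.1253 to 0.0554 in MED15. Likewise it ranged from -0.0796 to 0.2212 in Polr2H, from -0.0904 to 0.0494 in Polr2E, from -0.0077 to 0.0893 in Taf10b and from -0.0816 to 0.0252 in Taf3. No pairing beyond that within each array was possible because each array already holds both conditions and there is 1 group. Spot signals over background were not used, so which ratios rest on dim spots is unknown.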
